A study of Mus musculus with 24 samples.

Results

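The transcripts of 9 genes of the insulin granule exocytosis machinery, Snap25, Stx1a, Vamp2, Syt7, Rab3a, Rab27a, Myrip, Sytl4 and Unc13a, were followed through MIN6 cells made to inhibit or overexpress miR-146a-5p. They were taken by gene symbol from the table of estimated counts, where each had 1 entry, so they were 9 of the 17696 genes listed. MIN6 cells come from a mouse insulinoma and are used as a β cell model. Scr cells carried a lentiviral vector with a scrambled sequence, ZIP cells a vector with a sequence antisense to miR-146a-5p, and OE cells a vector overexpressing miR-146a-5p. All 3 lines had been selected with puromycin and expanded from single picked clones, so the effect of a vector and the properties of its clone cannot be told apart. The Scr and ZIP vectors shared a backbone and the OE vector had another. The same lines exposed for 24 h to IL-1β at 5 ng/ml, IFNγ at 100 ng/ml and TNFα at 10 ng/ml were named Scr+Cy, ZIP+Cy and OE+Cy. Bulk RNA-seq was available for 4 libraries in each of the 6 groups, 24 in all. The labels number the libraries of a group from 1 to 4 without saying that they came from separate cultures, so p-values measure the spread between these libraries only. miR-146a-5p itself is not measured in the count table and was not analysed here. By qRT-PCR the study reported its level as raised in untreated OE cells and unchanged in untreated ZIP cells against Scr. It also reported a rise with cytokines in all 3 lines.

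Insulin is stored in dense-core granules that are carried to the plasma membrane, docked, primed and fused when calcium rises. Granules are held at the cell cortex by Rab27a and its effectors, among them Myrip, which links Rab27a to myosin motors and actin, and the granuphilin encoded by Sytl4, which docks granules. Rab3a is a second granule GTPase, Unc13a (Munc13-1) primes granules, Syt7 is a calcium sensor, and fusion is driven by the SNARE proteins Vamp2 on the granule and Snap25 and Stx1a on the plasma membrane.

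A microRNA pairs with 3′ UTRs mainly through its seed, here bases 2 to 8. The mature mouse sequence is shown first because the sites below were searched with it. It comes from RefSeq (chr11:43374435-43374456, minus strand, GRCm38), and its seed is in capitals.
miR-146a-5p: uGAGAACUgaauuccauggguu
The reverse complement of the seed, AGTTCTC, was found once in the longest annotated 3′ UTR (GENCODE M21, GRCm38) of 5 of the 9 genes, Syt7, Rab27a, Myrip, Sytl4 and Unc13a, and not in those of Snap25, Stx1a, Vamp2 and Rab3a. Each site is shown in 30 bases of its transcript strand, with the match in capitals, so that the flanks can be compared.
Syt7 (chr19:10452256-10452285, plus strand): agctggcctgccAGTTCTCagggtactgca
Rab27a (chr9:73097448-73097477, plus strand): aaaacaaaactgAGTTCTCtgaaaatggtt
Myrip (chr9:120474109-120474138, plus strand): tcttcacttccaAGTTCTCtggttctccta
Sytl4 (chrX:133937084-133937113, minus strand): aagcctgtgctgAGTTCTCtgttttaaact
Unc13a (chr8:71627798-71627827, minus strand): cctggctggttgAGTTCTCaccacctcccc
In Syt7 and Unc13a the match is followed by an A, the 8-base form of a seed site. Of 21007 genes with an annotated 3′ UTR, 11.2% held the match, and longer 3′ UTRs held it more often. Among genes with a 3′ UTR within 10% of the length of that of Myrip (2037 bases), 15.9% held it, and the share was 38% for the 5006 bases of Unc13a and 36.7% for the 4736 bases of Syt7. A match is a description of the letters, and neither its use nor its absence was tested.

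Each library held between 26657792 and 37168232 reads assigned to genes. Levels are given as CPM, the read count of a gene scaled with TMM to the same library total in all 24 libraries, as mean ± SD of 4 libraries where a mean is given. All 9 β cell markers examined, including Ins1, Ins2, Pdx1 and Mafa, had at least 1 CPM in every library, but their levels differed between lines. Ins1 lay between 528.5 and 810.8 CPM in Scr, 1176 and 1429 in ZIP, 6737 and 8709 in OE and 3471 and 5695 in OE+Cy libraries. Pdx1 went the other way, from 781.9 to 855.3 CPM in Scr to between 306.9 and 354.8 in OE+Cy, as did Mafa (981.2 to 1242 and 268.3 to 412.9 CPM). Of the other islet hormones, Gcg lay between 246.3 and 369.2 CPM in Scr, 38.2 and 44.2 in OE and 6.44 and 29.05 in OE+Cy, and Ppy was at 0 in every Scr, ZIP and Scr+Cy library and between 2.27 and 10.9 CPM in OE and OE+Cy. The part of these differences in the results was not tested. The 3 duct markers summed to between 19.3 and 33.0 CPM in the OE and OE+Cy libraries and to at most 1.14 CPM in the other libraries, with Krt19 at 0 in every library of the Scr and ZIP lines. The 4 fibroblast markers summed to 46.6 CPM in Scr+Cy replicate 1, 42.4 in ZIP replicate 1 and 13.5 in Scr replicate 1, and to between 0.504 and 5.47 CPM in the other 21 libraries. The 4 markers of neurons and Schwann cells were highest in the same 3 libraries (63.03, 31.3 and 16.4 CPM), and the part of these RNAs in the results was not tested. Each call on the 9 genes that changed when those 3 libraries were left out is given with its value without them. That fit was not made for the genes around Myrip or the genes that resembled it. Fewer cells with a transcript and less of it per cell cannot be told apart in bulk RNA.

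**Figure D1:**
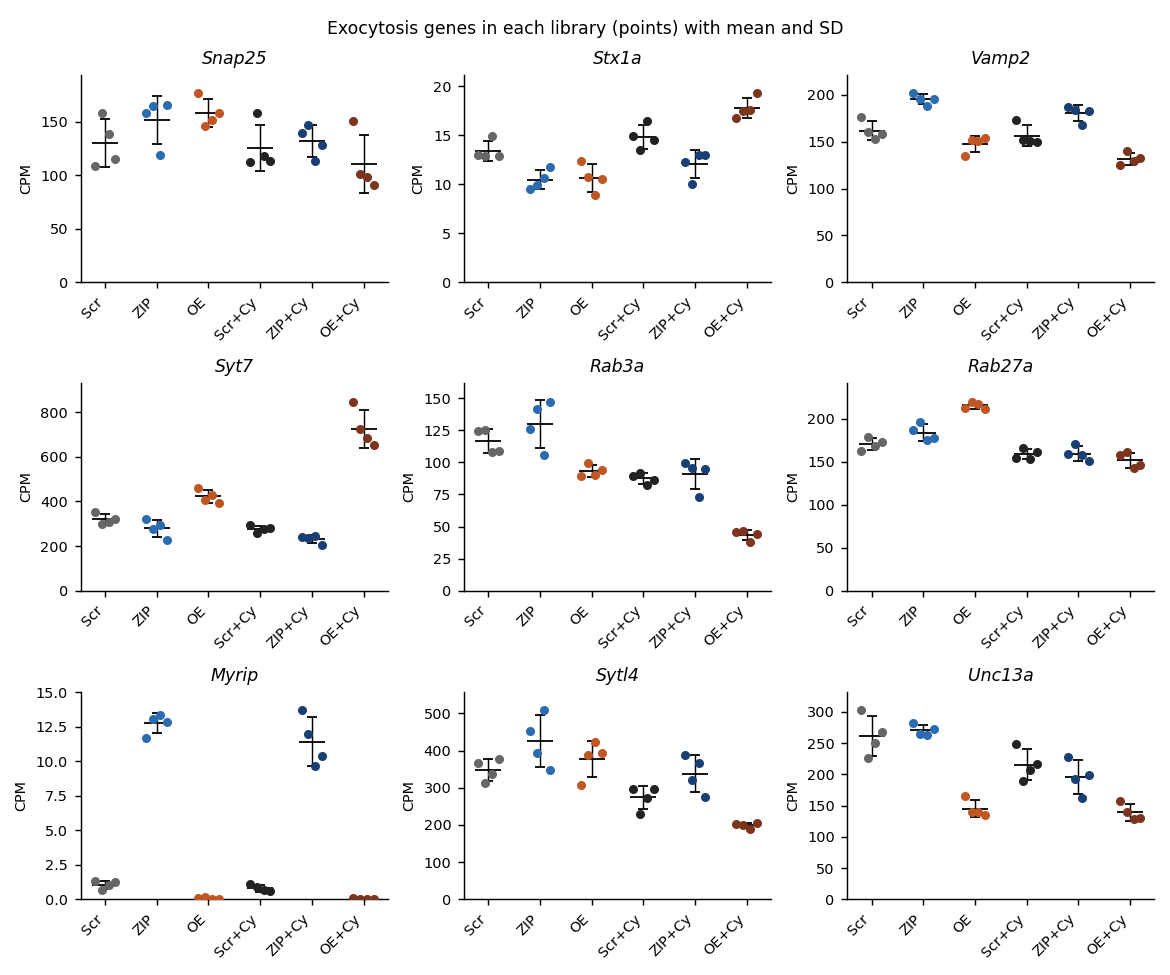
CPM of the 9 exocytosis genes (vertical axes, each from 0) in the 24 libraries by group (horizontal axis). Points are single libraries, and the bars are the mean and SD of 4. Myrip lies between 9.70 and 13.7 CPM in the 8 ZIP and ZIP+Cy libraries and at or below 1.30 CPM in the other 16, and Syt7 is highest and Rab3a lowest in OE+Cy.

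Per kilobase of annotated exon, 7 of the genes were of the same order in Scr cells, from 25.4 ± 3.09 CPM per kb for Unc13a to 69.1 ± 5.74 for Sytl4. Stx1a was lower at 6.21 ± 0.470 CPM per kb, and Myrip was lowest at 0.217 ± 0.0599. In ZIP cells Myrip reached 2.60 ± 0.150 CPM per kb, which was still below the 4.84 ± 0.461 CPM per kb of Stx1a. Myrip was thus the least abundant of the 9 transcripts in every group.

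A gene was called where its fold change was at least 1.5 with an unadjusted p under 0.05, the thresholds of the study, and is described as higher or lower only where its Benjamini-Hochberg adjusted p over all 17696 genes was also under 0.05. In ZIP versus Scr, Myrip was the 1 gene of the 9 called, against 14.9% of all genes, and 3 of the 9 had an adjusted p under 0.05, against 28.3% of all genes (5 of the 9 with the replicate number as a block in the model). In OE versus Scr, 2 of the 9 were called, Myrip and Unc13a, both lower, against 25.7% of all genes, and 6 had an adjusted p under 0.05, against 50.1%. The share of the 9 that passed was not far from that of all genes in both comparisons. ZIP versus Scr and OE versus Scr share the Scr libraries, so their values are given side by side and not counted against each other.

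With cytokines the lines differed from Scr+Cy in 1 of 9 called genes in ZIP+Cy (Myrip, background 15.8%) and 4 of 9 in OE+Cy (Syt7 higher, Rab3a, Myrip and Unc13a lower, background 28.5%). By adjusted p, 4 of 9 passed in ZIP+Cy versus Scr+Cy (28.1% of all genes) and 7 of 9 in OE+Cy versus Scr+Cy (53.4%). Against untreated Scr cells, 1 of 9 was called in ZIP+Cy (21.7% of all genes) and 5 of 9 in OE+Cy (34.2%), where Sytl4 joined the 4 genes above. By adjusted p these counts were 5 (40.8% of all genes) and 8 (59.5%). Of the groups set against Scr, OE+Cy had the most called genes both among the 9 and among all genes.

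In Scr cells Rab3a and Sytl4 were lower with cytokines, each by less than 1.5-fold. None of the 9 was called in Scr+Cy versus Scr by edgeR's quasi-likelihood test, against 10.6% of all genes, although 4 had an unadjusted p under 0.05, and none was called by DESeq2. By adjusted p Rab3a and Sytl4 passed, 2 of 9, against 17.8% of all genes, and 4 passed with the replicate block. In ZIP+Cy versus ZIP none of the 9 was called by edgeR or DESeq2 (background 12.5%), 6 had an unadjusted p under 0.05, and 5 passed by adjusted p, all lower (background 26.4%). In OE+Cy versus OE, 4 of 9 were called, Stx1a and Syt7 higher and Rab3a and Sytl4 lower, against 21.0% of all genes, and 7 passed by adjusted p, against 44.6%.

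The difference between responses was tested as an interaction. No gene of the 9 responded differently to cytokines in ZIP than in Scr cells at an adjusted p under 0.05 in edgeR or DESeq2, and none had an unadjusted p under 0.05, but only 0.0565% of all genes passed that test. In OE cells 5 of the 9 responded differently from Scr cells, against 20.0% of all genes: Stx1a and Syt7 upward, and Rab3a, Rab27a and Sytl4 downward.

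**Figure D2:**
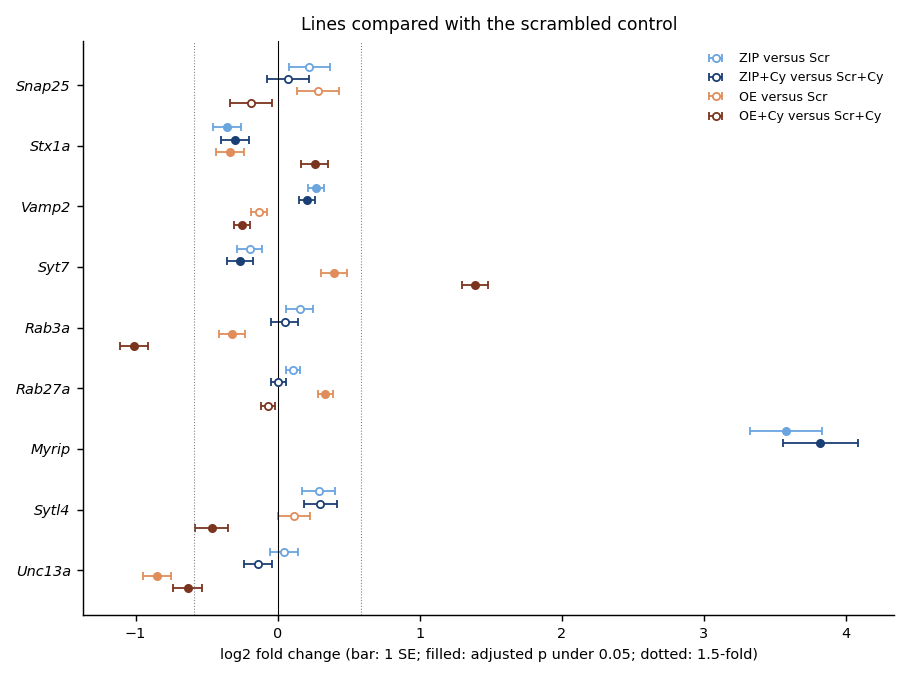
Log2 fold changes (horizontal axis) of the 9 genes (vertical axis) between lines without and with cytokines. Bars are 1 SE, filled points have an adjusted p under 0.05, and dotted lines mark a fold change of 1.5. Myrip in OE cells is left out because its reads were too few to size its fitted fold change, although the counts of called genes use that fit. The ZIP values of Myrip lie at 3.58 and 3.82.

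Myrip, the Rab27a effector that ties granules to the actin cortex, varied most. The Scr libraries held 1.29, 0.661, 1.03 and 1.27 CPM (23 to 48 reads), the ZIP libraries 11.7, 13.1, 13.4 and 12.9 CPM (320 to 432 reads), and the OE libraries 0.0907, 0.136, 0 and 0 CPM (3, 5, 0 and 0 reads). No library of ZIP, Scr and OE overlapped with one of another line. Myrip was higher in ZIP than in Scr cells by 3.58 ± 0.252 on the log2 scale (SE), an 11.95-fold difference with an adjusted p of 7.91e-11. OE cells had 8 reads in total against 145 in Scr cells, which is 18.2-fold lower with a 95% counting interval of 8.99 to 42.9. The study chose Myrip among predicted targets of miR-146a-5p partly from these libraries, so its directions here are not independent evidence. It also measured Myrip by qRT-PCR, which was not analysed here, and reported it as raised in ZIP cells under cytokines.

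Cytokines left this order in place. Myrip stood at 1.14, 0.861, 0.652 and 0.571 CPM in Scr+Cy, at 13.7, 11.96, 9.70 and 10.4 CPM in ZIP+Cy, and at 0.0695, 0, 0 and 0 CPM in OE+Cy, where 1 library held 2 reads and the others none. The groups again did not overlap. ZIP+Cy was higher than Scr+Cy by 3.82 ± 0.262 on the log2 scale (adjusted p = 5.39e-11), and OE+Cy, with 2 reads against 100, was 49.6-fold lower with a 95% counting interval of 13.4 to 415. Within a line, no cytokine response of Myrip was detected at this depth: the log2 fold change was −0.40 ± 0.293 in Scr (95% interval −1.01 to 0.22, adjusted p = 0.405) and −0.16 ± 0.211 in ZIP cells (−0.60 to 0.29, adjusted p = 0.640). With 8 reads in OE and 2 in OE+Cy, no library of which held more than 5, no fold change was taken between these groups. Counting intervals cover counting error only.

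Myrip lies on chromosome 9 (chr9:120304073-120474835, mm10, plus strand), and the genes around it also differed between lines. Within 5 Mb on each side, 54 other genes had a mean of at least 1 CPM over the 24 libraries. The last listed gene in the window starts 4170 kb past the start of Myrip. In ZIP versus Scr, 47 of these 54 were higher and 2 lower by adjusted p, where 28.3% of all genes passed. That share and the one for OE below are not limited to genes with a mean of at least 1 CPM. Their median log2 fold change was 0.79, or 1.73-fold, and the median of all genes was 0. None of the 54 exceeded Myrip. The largest difference of the 54 in ZIP versus Scr was that of Entpd3, an ectonucleotidase gene that starts 236 kb from the start of Myrip and was named after its values were seen, with log2 fold changes of 2.75 in ZIP and 3.76 in OE cells. In OE versus Scr the median of the 54 genes was 0.13, with 22 higher and 8 lower by adjusted p, where 50.1% of all genes passed. From Tcaim, 2501 kb past the start of Myrip, to the end of the window, these genes were higher in OE by adjusted p. The exceptions were Kif15 (−0.17), Tmem158 (0.05) and Lars2 (−0.15), and the edge was set after the values were seen. Higd1a, at 3.60 CPM in Scr cells, was the 1 gene of the 54 with a larger fitted fall in OE than Myrip. The shift in ZIP cells extended over the region and was smaller than that of Myrip. Its cause and that of the OE differences were not tested.

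**Figure D3:**
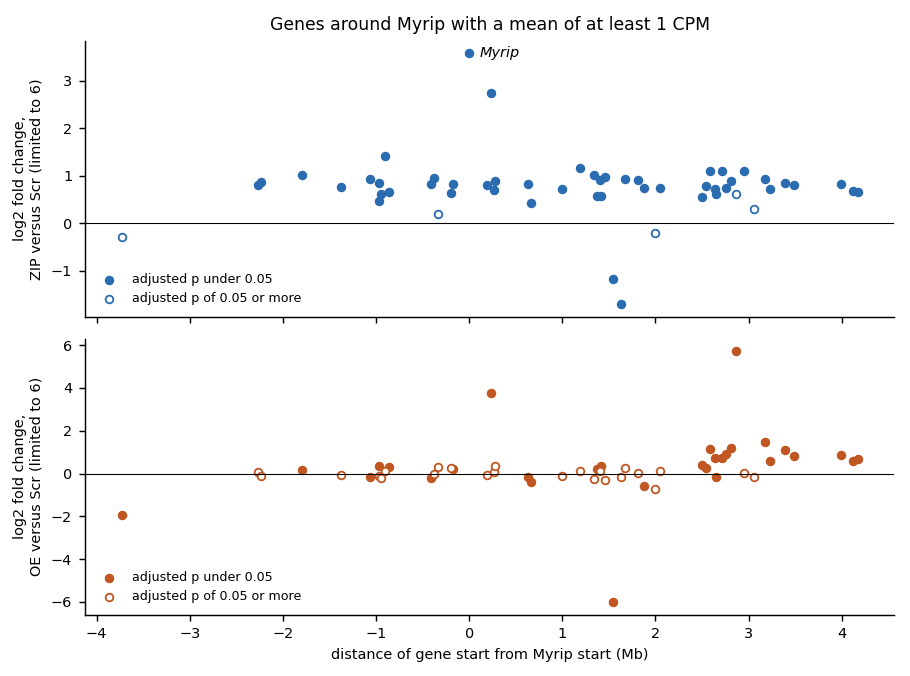
Log2 fold change (vertical axes) in ZIP (top) and OE (bottom) versus Scr of genes with a mean of at least 1 CPM against the distance of their start from that of Myrip in Mb (horizontal axis). Filled points have an adjusted p under 0.05, values are limited to 6 in size, and Myrip is left out of the OE panel. In ZIP cells 47 of 54 neighbours lie above 0 with an adjusted p under 0.05, and the median is 0.79.

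The same count was made for the 10 listed genes on each side of every member. Over all genes, with no limit on CPM, 28.3% passed by adjusted p in ZIP versus Scr and 50.1% in OE versus Scr, counting both directions. Around Myrip, 12 of 13 neighbours with a mean of at least 1 CPM were higher in ZIP by adjusted p. Rab27a, also on chromosome 9, had 5 of 10 such neighbours higher in ZIP and in OE cells, with medians of 0.17 and 0.14 on the log2 scale. In OE cells this count was near the share of all genes. Around Unc13a on chromosome 8, 9 of 16 neighbours were lower and 2 higher in ZIP (median log2 fold change −0.33). In OE cells 9 of the 16 were lower and 3 higher (−0.23). For the other 6 genes the neighbours' medians in these comparisons lay between −0.18 and 0.17. Rab3a, also on chromosome 8, was one of them, with neighbour medians of −0.0021 in ZIP and 0.12 in OE.

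Of the other effector, Sytl4, which encodes granuphilin, the libraries held 366, 313, 337 and 377 CPM in Scr, 452, 394, 508 and 347 in ZIP and 307, 388, 422 and 392 in OE cells. The 3 untreated lines overlapped, and neither ZIP (log2 fold change 0.29 ± 0.115, adjusted p = 0.0640) nor OE (0.12 ± 0.115, adjusted p = 0.426) passed the test against Scr. With cytokines the values were 297, 231, 273 and 298 CPM (Scr+Cy), 388, 321, 367 and 276 (ZIP+Cy) and 201, 201, 188 and 206 (OE+Cy). Every OE+Cy library lay below every other library of the series. Sytl4 fell with cytokines in OE cells (−0.92 ± 0.116 on the log2 scale, adjusted p = 5.31e-07), further than in Scr cells (difference −0.58 ± 0.163, interaction, adjusted p = 0.0132). It was also lower with cytokines in Scr (−0.34 ± 0.115, adjusted p = 0.0402) and ZIP cells (−0.33 ± 0.115, adjusted p = 0.0352), but without the 3 libraries with fibroblast transcripts these adjusted p-values were 0.0885 and 0.0965. ZIP+Cy exceeded Scr+Cy by 0.30 ± 0.115 (adjusted p = 0.0548), and with the replicate number as a block the adjusted p was 0.0430.

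Rab27a, the GTPase to which Myrip and granuphilin bind, was highest in OE cells. The libraries held 163, 179, 169 and 173 CPM in Scr, 188, 196, 176 and 177 in ZIP and 213, 219.7, 218 and 212 in OE. All OE libraries lay above all others of the series, and the difference from Scr was 0.34 ± 0.0507 on the log2 scale (adjusted p = 5.23e-06), below the 1.5-fold limit. In ZIP cells Rab27a differed from Scr by 0.11 ± 0.0507 (adjusted p = 0.117, and 0.0401 with the replicate block). The cytokine-treated groups, with 155, 166, 153 and 162 CPM (Scr+Cy), 159, 171, 158 and 151 (ZIP+Cy) and 158, 161, 142 and 146 (OE+Cy), overlapped with each other. Rab27a fell with cytokines in OE cells (−0.51 ± 0.0508, adjusted p = 1.65e-08) and in ZIP cells (−0.21 ± 0.0508, adjusted p = 0.00351). The response of OE differed from that of Scr cells by −0.40 ± 0.0717 (interaction, adjusted p = 0.000335), where Scr itself gave −0.10 ± 0.0507 (adjusted p = 0.175).

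Rab3a, the other granule GTPase, was lowest in OE+Cy. Its libraries held 125, 125, 108 and 109 CPM in Scr, 126, 142, 106 and 147 in ZIP and 89.7, 99.6, 90.2 and 94.4 in OE. After cytokines they held 89.7, 92.1, 82.4 and 86.5 (Scr+Cy), 99.2, 95.3, 73.4 and 94.7 (ZIP+Cy) and 45.5, 46.5, 37.9 and 44.1 (OE+Cy). No OE+Cy library overlapped with another group. Rab3a was lower with cytokines in all 3 lines, with log2 fold changes of −0.41 ± 0.0935 in Scr (adjusted p = 0.00237), −0.52 ± 0.0937 in ZIP (0.000160) and −1.10 ± 0.0958 in OE cells (1.40e-09). The fall in OE was larger than in Scr (difference −0.69 ± 0.133, interaction, adjusted p = 0.000703), and the fall in ZIP differed from that in Scr by −0.11 ± 0.132 (95% interval −0.38 to 0.17, adjusted p = 0.957). Without cytokines OE was lower than Scr, with a log2 fold change of −0.32 ± 0.0933 (adjusted p = 0.00576), and ZIP did not pass (0.15 ± 0.0930, adjusted p = 0.235).

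**Figure D4:**
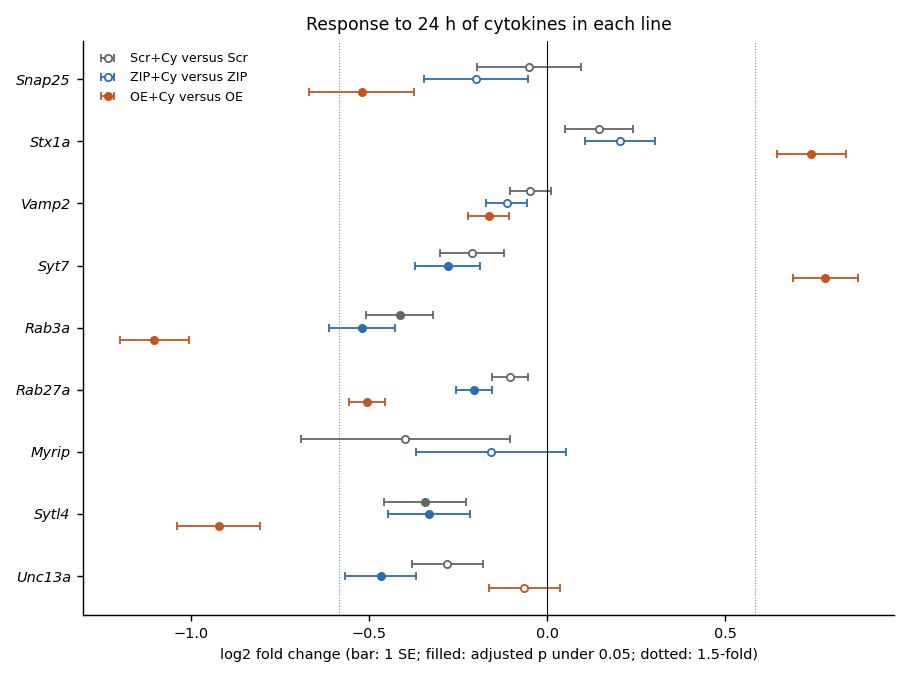
Log2 fold change (horizontal axis) after 24 h of cytokines of the 9 genes (vertical axis) in Scr, ZIP and OE cells. Bars are 1 SE, filled points have an adjusted p under 0.05, dotted lines mark a fold change of 1.5, and Myrip in OE cells is left out because its reads were too few. In OE cells Stx1a (0.74) and Syt7 (0.78) lie to the right and Rab3a (−1.10) and Sytl4 (−0.92) to the left of both other lines.

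Syt7, a calcium sensor of granule fusion, was highest in OE+Cy. Its libraries held 352, 299, 309 and 323 CPM in Scr, 320.5, 275, 295 and 229 in ZIP and 460.2, 408, 428 and 393 in OE, and 295, 260.1, 275 and 279 CPM (Scr+Cy), 241, 235, 243 and 203 (ZIP+Cy) and 845, 723, 683 and 652 (OE+Cy). All OE+Cy libraries lay above all OE libraries, and these above all others. Syt7 was higher in OE than in Scr by 0.40 ± 0.0900 on the log2 scale (adjusted p = 0.000722) and rose further with cytokines by 0.78 ± 0.0903 (adjusted p = 1.50e-07). In Scr cells the cytokine response was −0.21 ± 0.0900 (adjusted p = 0.114, and 0.0165 with the replicate block), and the responses of OE and Scr differed by 0.99 ± 0.127 (interaction, adjusted p = 1.25e-05). In ZIP cells Syt7 was lower with cytokines (−0.28 ± 0.0902, adjusted p = 0.0233) and lower in ZIP+Cy than in Scr+Cy (−0.27 ± 0.0902, adjusted p = 0.0301). Without the 3 libraries with fibroblast transcripts these adjusted p-values were 0.105 and 0.0618, and ZIP versus Scr without cytokines (−0.20 ± 0.0901, adjusted p = 0.110) passed only with the replicate block (0.0137).

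Unc13a, the priming factor, was lower in OE cells. The libraries held 302, 226, 250.4 and 268 CPM in Scr, 281, 265, 264 and 272 in ZIP and 166, 140.3, 140.2 and 135 in OE. OE did not overlap with the other lines, and its log2 fold change against Scr was −0.85 ± 0.1001 (adjusted p = 1.41e-07), while ZIP was at 0.05 ± 0.0992 (adjusted p = 0.776). With cytokines Unc13a stood at 249, 189, 207 and 217 CPM (Scr+Cy), 228, 193, 161 and 199 (ZIP+Cy) and 157, 140, 128 and 130.3 (OE+Cy). OE+Cy was lower than Scr+Cy (−0.63 ± 0.1001 on the log2 scale, adjusted p = 9.63e-06), and without Scr+Cy replicate 1 the value was −0.56, under the 1.5-fold limit. ZIP cells had lower Unc13a with cytokines (−0.47 ± 0.0996, adjusted p = 0.000960), Scr cells gave −0.28 ± 0.0993 (adjusted p = 0.0529, and 0.00162 with the replicate block), and OE cells −0.06 ± 0.0999 (95% interval −0.27 to 0.15, adjusted p = 0.642).

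Of the SNARE proteins, Stx1a (syntaxin 1A) was the least abundant and moved most. Its libraries held 13.0, 12.9, 14.9 and 12.8 CPM in Scr, 9.51, 9.92, 10.6 and 11.8 in ZIP and 12.3, 10.8, 8.94 and 10.6 in OE, and 14.9, 13.5, 16.5 and 14.5 CPM (Scr+Cy), 12.3, 10.0, 12.9 and 13.0 (ZIP+Cy) and 16.8, 17.5, 17.6 and 19.3 (OE+Cy). Both altered lines lay below all Scr libraries, and all OE+Cy libraries lay above all others. Stx1a was lower than in Scr, with log2 fold changes of −0.36 ± 0.0974 in ZIP (adjusted p = 0.00688) and −0.33 ± 0.0965 in OE cells (adjusted p = 0.00554). It rose with cytokines in OE cells by 0.74 ± 0.0961 (adjusted p = 8.27e-07), by more than in Scr cells (difference 0.60 ± 0.135, adjusted p = 0.00278), where the response was 0.15 ± 0.0954 (adjusted p = 0.338). OE+Cy was above Scr+Cy (0.26 ± 0.0948, adjusted p = 0.0232) and ZIP+Cy below it (−0.30 ± 0.0967, adjusted p = 0.0227).

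Vamp2, the granule SNARE, changed by less than 1.5-fold throughout. Its libraries held 176, 161, 152 and 158 CPM in Scr, 202, 196, 188 and 196 in ZIP and 135, 152, 151 and 154 in OE. ZIP lay above all Scr and OE libraries, with a log2 fold change of 0.27 ± 0.0571 (adjusted p = 0.000699), and OE versus Scr was −0.13 ± 0.0571 (adjusted p = 0.0575). With cytokines Vamp2 stood at 173, 152, 151 and 150 CPM (Scr+Cy), 187, 184, 168 and 183 (ZIP+Cy) and 125, 139.6, 129 and 132 (OE+Cy). ZIP+Cy was above Scr+Cy by 0.21 ± 0.0572 (adjusted p = 0.00856), with Scr+Cy replicate 1 inside its range, and OE+Cy was below Scr+Cy (−0.25 ± 0.0573, adjusted p = 0.000746).

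Snap25, the plasma membrane SNARE, varied widely between libraries of a group. It stood at 109, 158, 138 and 115 CPM in Scr, 159, 164, 119 and 165 in ZIP and 176, 146, 152 and 158 in OE, and at 113, 158, 118 and 113 CPM (Scr+Cy), 139.6, 147, 114 and 128 (ZIP+Cy) and 150.5, 102, 98.2 and 91.1 (OE+Cy). Every pair of neighbours in the order of its group means overlapped. Only OE+Cy versus OE passed by adjusted p (−0.52 ± 0.147, adjusted p = 0.00538), and the difference between OE and Scr responses did not (−0.47 ± 0.208, 95% interval −0.91 to −0.03, adjusted p = 0.119). Without OE+Cy replicate 1, the library with 150.5 CPM, the log2 fold change of OE+Cy versus OE was −0.71.

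In the order of the 6 group means, some groups had no library that overlapped with the next group, and the share of all genes with such gaps was not counted. OE+Cy stood apart at the top for Stx1a and Syt7 and at the bottom for Rab3a and Sytl4, and ZIP+Cy at the bottom for Syt7. OE stood apart at the top for Rab27a and ZIP for Vamp2. For Syt7, OE was also separated from Scr below it, and for Rab3a, Scr was separated from OE below it. For Unc13a and Snap25 every group overlapped with the next. For Myrip the order ZIP and ZIP+Cy, then Scr and Scr+Cy, then OE and OE+Cy held without overlap between the 3 lines.

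Other genes of granule exocytosis, 100 listed ones in 7 roles, were counted in the same way. In ZIP versus Scr 14 of 100 were called (6 higher and 6 lower by adjusted p), in OE versus Scr 27 (9 higher, 18 lower), in Scr+Cy versus Scr 9, in ZIP+Cy versus ZIP 11 and in OE+Cy versus OE 24 (13 higher and 10 lower by adjusted p), all within 3 percentage points of the shares of all genes given above. The median log2 fold change of the 100 lay between −0.02 and 0.07 in these 5 comparisons. By adjusted p the counts were 42 (22 higher) in ZIP versus Scr and 66 (30 higher) in OE versus Scr, above the 28.3% and 50.1% of all genes, and the list's genes were not matched to all genes in expression. The interaction was called for 28 of 100 in OE cells (20.0% of all genes, and 22 of 100 without the 3 libraries with fibroblast transcripts) and 0 of 100 in ZIP cells (0.0565% of all genes), where 9 had an unadjusted p under 0.05 and DESeq2 called none.

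**Figure D5:**
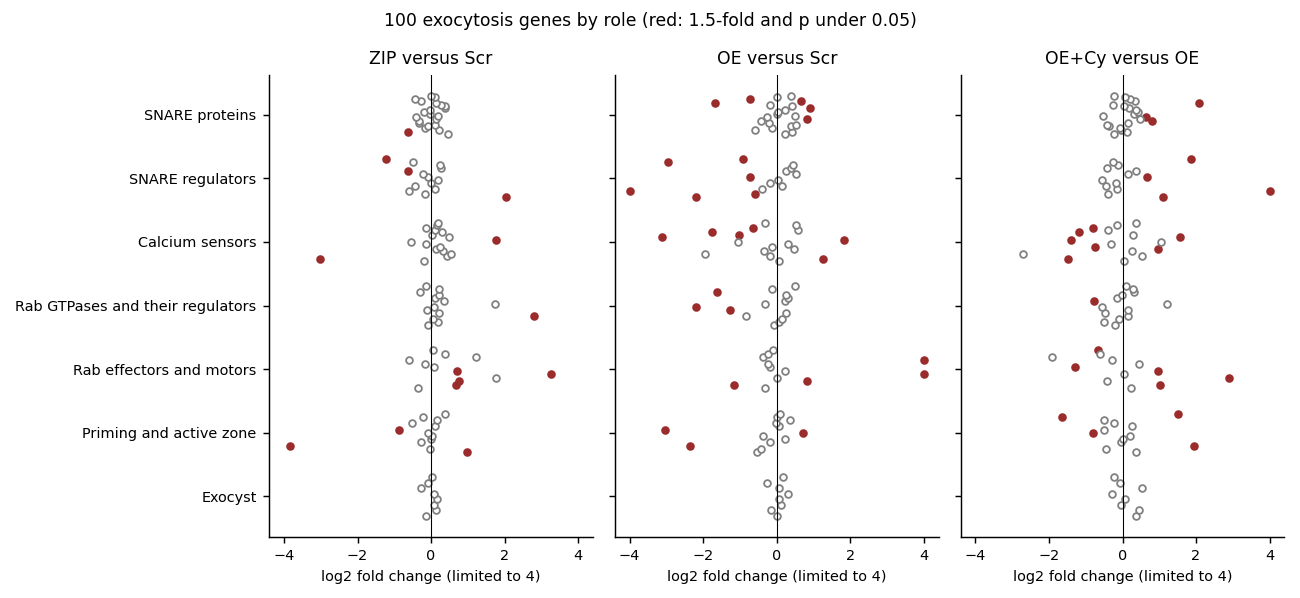
Fitted log2 fold change (horizontal axes, limited to 4 in size) of 100 exocytosis genes by role (vertical axis) in ZIP versus Scr, OE versus Scr and OE+Cy versus OE. Red points have a fold change of at least 1.5 and p under 0.05, and open grey points do not. All 4 called Rab effectors and motors lie to the right in ZIP cells, and all 6 called SNARE regulators to the left in OE cells. Among these, Myo5c (0.034 CPM in ZIP, 0 in Scr) and Cplx3 (0 CPM in OE, 0.068 in Scr) had almost no reads.

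Among the 12 Rab effectors and motors, 4 were called in ZIP versus Scr (background 14.9%) and 3 of these were higher by adjusted p. The other, Myo5c, was at 0.034 CPM in ZIP and 0 in Scr cells (adjusted p = 0.123). The 3 higher genes included the myosins that act with Rab27a effectors: Myo5a (myosin Va) was at 389 ± 6.72 CPM in ZIP and 230.4 ± 19.5 in Scr cells, and Myo7a (myosin VIIa) at 34.4 ± 1.57 and 21.2 ± 1.93. Myo5a was higher in OE cells as well (403 ± 20.02 CPM, log2 fold change 0.81 ± 0.0713, adjusted p = 1.07e-09). Among the neighbours of Rab27a counted above, the highest log2 fold change in OE versus Scr was 0.807, the value of Myo5a. Neighbours on the chromosome were not counted for the 100 genes. Mlph, a Rab27a effector that binds myosin Va, stood at 136.5 ± 14.2 CPM in ZIP+Cy against 58.2 ± 5.34 in Scr+Cy. It was lower in OE than in Scr cells (28.4 ± 4.395 against 63.7 ± 7.71 CPM, adjusted p = 4.04e-08). With cytokines Mlph rose in OE cells to 57.7 ± 10.7 CPM, near its level in Scr+Cy. Myo7a rose with cytokines in OE cells by 0.95 ± 0.119 on the log2 scale (adjusted p = 4.8e-07).

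The 14 SNARE regulators had 6 called in OE versus Scr (background 25.7%), all lower. Stxbp5l (tomosyn-2, an inhibitor of SNARE assembly) had the largest difference of those named, from 88.5 ± 6.16 CPM in Scr to 11.5 ± 3.19 in OE cells (log2 fold change −2.94 ± 0.142, adjusted p = 1.78e-14). Cplx2, a complexin, fell with cytokines in ZIP cells from 404 ± 52.5 to 256 ± 27.5 CPM. It was also lower with cytokines in the other lines, at 451 ± 12.7 and 346 ± 21.0 CPM in Scr and Scr+Cy and 300 ± 17.0 and 230 ± 25.1 in OE and OE+Cy. Cplx1 was higher in ZIP+Cy (11.5 ± 1.19 CPM) than in Scr+Cy (4.14 ± 2.44). Stxbp3, a partner of syntaxins, was lower in ZIP than in Scr cells, at 9.49 ± 0.812 against 14.6 ± 1.37 CPM.

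Of 22 other SNARE proteins, 1 was called in ZIP versus Scr (background 14.9%) and 5 in OE versus Scr (background 25.7%). Snap29 was lower in ZIP, at 27.45 ± 1.23 against 42.8 ± 2.17 CPM. The plasma membrane syntaxin Stx3 was higher in OE (55.0 ± 5.93 CPM) than in Scr cells (30.85 ± 2.23) and stood at 76.3 ± 8.31 CPM in OE+Cy. Vamp8 was at 71.9 ± 7.16 CPM in OE+Cy and 42.5 ± 1.80 in Scr+Cy, and Stx2 rose in OE cells with cytokines from 18.3 ± 0.876 to 31.7 ± 4.07 CPM.

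Of 17 other synaptotagmin and Doc2 genes, 6 were called in OE versus Scr (background 25.7%), 4 of them lower. Syt3 was at 8.55 ± 0.686 CPM in OE against 28.9 ± 3.29 in Scr cells and at 3.79 ± 0.951 in OE+Cy, in contrast to Syt7. Syt13 fell with cytokines in OE cells from 842 ± 40.9 to 501 ± 39.6 CPM. Of the 14 Rab GTPases and regulators, 3 were called in OE versus Scr (background 25.7%), all lower, among them Rab3b (2.23 ± 0.247 against 10.2 ± 2.035 CPM). Rab3d fell with cytokines in OE cells from 204 ± 15.3 to 119.5 ± 19.0 CPM.

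Of 13 priming and active zone genes, 3 were called in ZIP versus Scr (background 14.9%) and 3 in OE versus Scr (background 25.7%). Bsn (bassoon) was at 124 ± 10.98 CPM in ZIP and 63.6 ± 5.94 in Scr cells. Rimbp2, a RIM-binding protein, was higher in OE (389 ± 21.6 against 237 ± 7.34 CPM) and fell there with cytokines to 221.5 ± 35.7. Rims3 was lower in ZIP+Cy (55.2 ± 6.83 CPM) than in Scr (97.7 ± 9.97). Cadps2 rose with cytokines in Scr cells from 3.04 ± 0.507 to 11.7 ± 1.92 CPM. It stood at 0.214 ± 0.163 CPM in ZIP and 1.05 ± 0.204 in ZIP+Cy, and at 0.5875 ± 0.3295 in OE and 2.23 ± 1.02 in OE+Cy. None of the 8 exocyst genes was called between lines, where between 14.9% and 28.5% of all genes were. Exoc6 rose with cytokines in Scr (27.1 ± 2.59 to 45.85 ± 4.64 CPM) and ZIP cells (22.2 ± 1.85 to 44.4 ± 3.72), and by less than 1.5-fold in OE cells (28.4 ± 1.26 to 41.2 ± 2.64, adjusted p = 7.16e-06).

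The genes whose levels most resembled those of Myrip over the 24 libraries were Bcam, Nqo1, Ero1b, Dag1 and Sil1, with Pearson correlations of log2 CPM of 0.986, 0.978, 0.976, 0.975 and 0.973 among 12669 genes. The points share their line and clone, so these values describe the order of the lines. Of these genes, Dag1 lies on chromosome 9, as Myrip does. Bcam, an adhesion molecule gene, had means of 139.6 CPM in Scr, 428 in ZIP and 32.6 in OE cells. Nqo1, a quinone reductase gene, had means of 3.16, 11.7 and 1.15 CPM in the same order.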

How the data were processed

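RNA from 24 libraries of MIN6 stable lines in 6 groups of 4 was analysed. Per the labels and the study's methods, the authors aligned reads to mm10 with STAR and assigned them to RefSeq transcripts in Partek Flow. The labels name STAR 2.7.8a and Partek 11.0.24.0204, and the methods name other versions. How reads were assigned and whether strand was used are not given in the sources used here. The authors deposited estimated counts per gene for genes with 10 or more reads over all libraries. Of these values, 21.02% were 0.01 or more from a whole number. A deposited table of normalized values was not used.

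Counts were rounded, scaled with TMM, and fitted with 1 mean per group in edgeR 4.0.16 (R 4.3.3), with glmQLFit and glmQLFTest over all 17696 genes. SE is the size of the log2 fold change divided by the square root of F. Interactions were called at an adjusted p under 0.05. Libraries of a group differed by more than sampling noise, and no listed gene overlapped one of the 9. Lengths and 3′ UTRs came from GENCODE M21. The fit was tested on simulated data.

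The 9 genes and all lists were chosen with earlier results of these data known. Named are the 9 genes, the 5 genes most correlated with Myrip, and, of the 100 others, up to 3 called rises and 3 falls per comparison with an adjusted p under 0.05, a mean of 10 CPM or more in one of the groups and no overlap between libraries.

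Groups share replicate numbers, and the labels give all 6 libraries with the same number a shared tag, P65 to P68, whose meaning they do not give. Deviations of same-numbered libraries from their group means were correlated over 12670 genes. They correlated above 0.1 for every number in ZIP versus Scr (lowest 0.141), Scr+Cy versus Scr (0.413) and ZIP+Cy versus ZIP (0.261). The same held for OE+Cy versus OE (0.162) and ZIP+Cy versus Scr+Cy (0.191). These comparisons are called paired, from the data and not the design. The main fit had no replicate term, so its SE and p-values do not use this pairing. Only the replicate block, fitted as an alternative, does. For the genes listed at the start of the Results, each call by adjusted p that the block changed in these comparisons is given there. The alternatives were DESeq2 1.42.0, its size factors in edgeR, filterByExpr, only the groups compared, the replicate block, other call rules and leaving out libraries.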

Additional observations from a re-analysis of the deposited data

Results flagged for a closer look

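In 126 combinations of gene and group of 4 libraries, Dixon's test at the 95% level marked 11 single libraries as far from the other 3, where chance marks about 1 in 20. Among the 9 genes these were Stx1a in Scr replicate 3 (14.9 CPM, others 12.85 to 13.0), Snap25 in ZIP replicate 3 (118.9 CPM, others 158.6 to 165.4), Snap25 in Scr+Cy replicate 2 (158 CPM, others 112.6 to 118), Vamp2 in OE replicate 1 (134.6 CPM, others 150.6 to 153.5) and Vamp2 in Scr+Cy replicate 1 (172.8 CPM, others 150 to 152.3). Vamp2 in Scr+Cy replicate 1 was measured in the library with the most fibroblast and Schwann cell transcripts, whose part was not tested. Myrip in OE+Cy replicate 1 (0.0695 CPM, 2 reads) was marked because the other 3 libraries held 0. Among the other exocytosis genes the libraries were Myo7a (18.4 CPM) and Stxbp3 (16.6 CPM) in Scr replicate 4, Mlph (75.1 CPM) in Scr replicate 1, Stx2 (19.65 CPM) in OE replicate 4 and Snap29 (31.1 CPM) in ZIP+Cy replicate 2.

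The cytokine responses of OE and Scr cells differed by the interaction test for 5 of the 9 genes, where 20.0% of all genes passed the same test. On the log2 scale, OE minus Scr, the differences were 0.60 for Stx1a, 0.99 for Syt7, −0.69 for Rab3a, −0.40 for Rab27a and −0.58 for Sytl4.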

How the results depend on the processing

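No log2 fold change of the 9 genes changed direction or side of the call threshold under DESeq2, DESeq2's size factors, filterByExpr, a fit of only the groups compared or the replicate block, and no level moved by more than its SD with DESeq2's size factors. TMM and these size factors both kept the median log2 fold change of all genes within 0.0562 of 0. The replicate block raised the number of all genes called in the interaction of ZIP and Scr from 10 to 45, and in unpaired comparisons it added Vamp2 in OE versus Scr and Rab27a in ZIP+Cy versus Scr by adjusted p. Among paired comparisons it changed no call other than those in the report.

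With adjusted p under 0.05 and no fold limit, the calls among the 9 genes and the 100 others were 3 and 42 in ZIP versus Scr, 6 and 66 in OE versus Scr, 2 and 32 in Scr+Cy versus Scr, 5 and 49 in ZIP+Cy versus Scr (40.8% of all genes), 8 and 63 in OE+Cy versus Scr (59.5%), 5 and 40 in ZIP+Cy versus ZIP, 7 and 66 in OE+Cy versus OE, 4 and 39 in ZIP+Cy versus Scr+Cy, and 7 and 55 in OE+Cy versus Scr+Cy, because small differences then count. At an unadjusted p, 9 of the 100 passed in the interaction of ZIP and Scr.

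Leaving out 1 library in turn, the calls among the 9 genes in ZIP+Cy versus ZIP ranged from 0 to 1, with Rab3a called (−0.61) without ZIP replicate 3. Signs changed only where log2 fold changes were near 0: Unc13a in ZIP versus Scr (−0.0161 to 0.12) and in OE+Cy versus OE (−0.13 to 0.0052), Snap25 in Scr+Cy (−0.18 to 0.0573) and ZIP+Cy versus Scr (−0.0535 to 0.13), Sytl4 in ZIP+Cy versus Scr (−0.12 to 0.0424), Rab27a in ZIP+Cy versus Scr+Cy (−0.014 to 0.032), and in the interaction of ZIP and Scr Stx1a (−0.0070 to 0.15), Syt7 (−0.15 to 0.015) and Sytl4 (−0.0742 to 0.12). Without OE+Cy replicate 1, Snap25 was called in OE+Cy versus OE (−0.71) and in the interaction of OE and Scr (−0.66).

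Leaving out the 3 libraries with fibroblast transcripts, chosen after seeing the data, turned the sign of Snap25 in ZIP+Cy versus Scr (−0.0535) and Rab27a in ZIP+Cy versus Scr+Cy (−0.0061) and took Unc13a in OE+Cy versus Scr+Cy below the fold limit (−0.56).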
